A study of Mus musculus with 6 samples.

Results

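Genes that mark retinal ganglion cells were followed in the retina of 5XFAD mice that did or did not receive efavirenz (EFV), a drug against HIV. They were 10, taken by name: Pou4f1, Pou4f2, Pou4f3, Rbpms, Sncg, Thy1, Slc17a6, Nefl, Nefm and Nefh. These are 10 of the 19401 genes that the libraries list, and all 10 were above the count minimum that left 15537 genes for testing. With EFV, none of the 10 genes changed past the spread between libraries. The intervals of 9 of them lay within a fold change of 0.84 to 1.18, and only that of Pou4f3, the scarcest of the 10, was wider.

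Retinal ganglion cells are the output neurons of the eye. They collect signals from bipolar and amacrine cells in the inner retina, release glutamate, and send the long axons that form the optic nerve. Because they are few among retinal cells and their axons are large, studies of glaucoma, optic nerve injury and Alzheimer's disease often count them, or measure their transcripts, as a sign of how the inner retina fares.

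The study asked how EFV, at a dose far below that used against the virus, affected the retina of a mouse model of Alzheimer's disease. All mice were 5XFAD animals on the B6SJL background, hemizygous for the transgenes of that model, one of which encodes mutant human amyloid precursor protein; no mice without the transgenes are among the libraries analysed here. In this line the transgenes are driven by the promoter of mouse Thy1, itself one of the 10 genes, and both groups carried them. Treated mice drank water with EFV from 3 to 9 months of age, and control mice were littermates of the same age whose water held only the vehicle (Tween 80), which the EFV water held as well; the labels call them untreated. The labels give the dose as 0.08 mg/kg of body weight, and the study's methods give a slightly higher one. There were 3 control and 3 EFV libraries. Each was made from a pool of 5 to 6 mice, which the methods describe as males that gave one retina plus its retinal pigment epithelium (RPE), so the spread between libraries is one between pools, and no value belongs to a single animal. The RNA is of whole tissue, and fewer ganglion cells and less RNA per ganglion cell cannot be told apart in any of the values.

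The libraries held 23455167 to 24590278 expected counts, and their scaling factors lay between 0.9842 and 1.014. The tissue was retina by its markers, with Gnat1, the transducin subunit of rods, at 7554.81 to 8156.55 FPKM (fragments relative to gene length and library total). Control library 3 stood apart from the other 5: the lens marker list summed to 1807 FPKM there and to 15.82 to 90.58 FPKM in the others, although the defining lens gene Cryaa was above 0 in every library. The RPE marker list was lowest in control library 2, at 30.24 FPKM, against 53.0 to 66.91 FPKM in the other 5. All 10 RPE markers had a log2 fold change above 0 with EFV, with a median of 0.41, where 50.5% of all genes tested were above 0. The part of lens and RPE tissue in the ganglion cell results was not tested. Values without control library 3, or without another library that moved a result, are given beside the calls and gene values they changed most. Among other cells, oligodendrocyte markers summed to 17.47 to 25.33 FPKM and T cell markers to 0.39 to 0.64 FPKM. Olig2 of the first list and Cd3g of the second were listed in no library and were taken as 0. Across all genes, edgeR's quasi-likelihood test called 0 at an adjusted p of 0.05; the smallest adjusted p was 0.323. At an unadjusted p of 0.05 in the same edgeR test, 472 genes passed, 467 of them with a fold change of at least 7%. The study's methods set these limits on p and fold, but for a test based on the Poisson distribution. Only the limits are shared, so these counts are not those of the study's own test.

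The 10 genes covered a 74.7-fold range of level. In mean FPKM over the 6 libraries the order was Nefl (143.5), Thy1 (138.9), Sncg (114.7), Nefm (30.99), Nefh (24.06), Rbpms (17.69), Slc17a6 (16.03), Pou4f1 (7.577), Pou4f2 (3.472) and Pou4f3 (1.922). Structural, synaptic and surface proteins of the axon led, and the transcription factors came last. FPKM is divided by length, so these levels can be compared between genes as far as the lengths used hold. Those lengths were 2014 bases for Nefl and 1146 for Pou4f3, where the GENCODE M21 transcripts hold 3380 and 2360. The effect of the choice of length on the order and the range was not tested. In 7 of the 9 neighbouring pairs the 6 values of the upper gene all lay above the 6 of the lower gene. The exceptions were Nefl with Thy1, whose means differed 1.03-fold, and Rbpms with Slc17a6, whose means differed 1.1-fold: these neighbours did not differ beyond their spread. The narrowest separated pair was Thy1 over Sncg, where the lowest Thy1 value, 133.79 FPKM, was just above the highest Sncg value, 133.09 FPKM. Among the genes tested, Nefl lay at the 98.0 percentile of level and Pou4f3 at the 24.1 percentile.

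**Figure D1:**
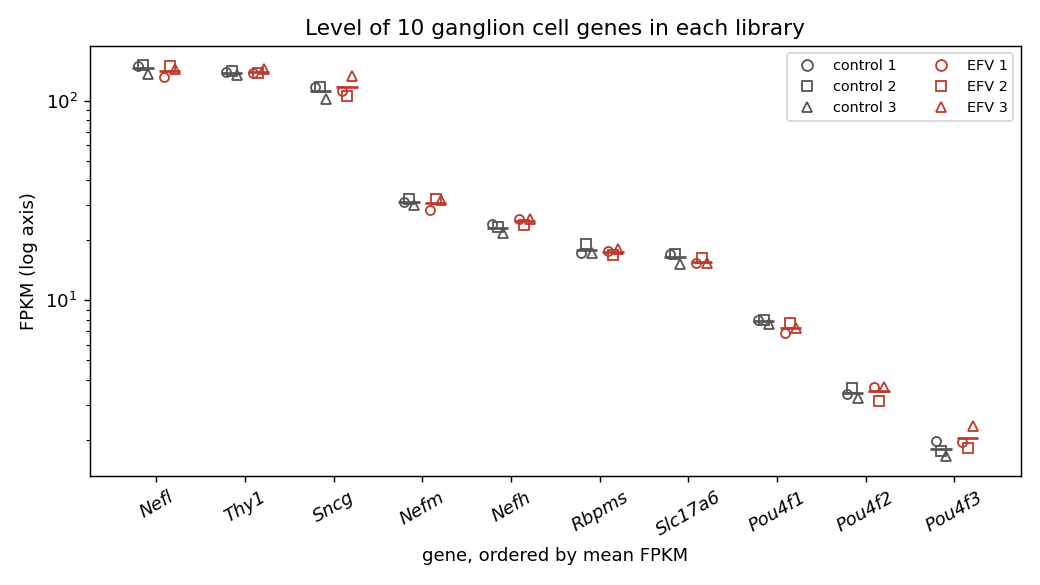
FPKM (log axis) of the 10 ganglion cell genes in each library, ordered by mean level, with control libraries in grey, EFV libraries in red and a bar at each group mean. The levels span 74.7-fold, from Nefl to Pou4f3, and for each gene the control and EFV values overlap.

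The Pou4f genes encode the BRN3 transcription factors, which bind DNA through a POU-specific domain and a homeodomain and direct the differentiation and survival of ganglion cells. Pou4f1 (BRN3A) and Pou4f2 (BRN3B) are close copies of each other in these domains. The longest stretches that their GENCODE M21 transcripts share without a mismatch are shown here because reads of such stretches fit both genes. They hold 71 and 50 bases and lie at coding bases 871 to 941 and 961 to 1010 of the 1263 of Pou4f1, and at 841 to 911 and 931 to 980 of the 1233 of Pou4f2, in the region that encodes the POU-specific domain.
First shared stretch: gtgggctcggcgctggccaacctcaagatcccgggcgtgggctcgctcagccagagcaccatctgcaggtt
Second shared stretch: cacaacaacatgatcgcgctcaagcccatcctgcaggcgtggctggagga
Windows of 50 bases that also occur in the other gene made up 0.523% of those of Pou4f1 and 0.729% of those of Pou4f2. The expected counts of both genes were whole numbers in all 6 libraries.

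Pou4f1 lies on chromosome 14 (104461675 to 104468118, GRCm38). Its level was 7.96, 8.01 and 7.63 FPKM in control libraries 1, 2 and 3 and 6.88, 7.67 and 7.31 FPKM in EFV libraries 1, 2 and 3. EFV library 2 was above control library 3, so the groups overlapped by 1 library, while the other EFV libraries were below all controls. The means were 7.867 ± 0.207 and 7.287 ± 0.396 FPKM (SD, n = 3 each). The log2 fold change, EFV over control, was -0.12 (SE 0.061, 95% interval -0.25 to 0.021), with an unadjusted edgeR p of 0.0866 and an adjusted p of 0.999. Without EFV library 2 it was -0.16 with an unadjusted edgeR p of 0.0477, and without EFV library 1 it was -0.079 with one of 0.254. The counts of Pou4f1 were summed over 3 transcripts, 2 of which were new models of the sequencing provider.

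Pou4f2 lies on chromosome 8 (78433009 to 78436647) and is the earliest of these factors that newborn ganglion cells switch on. It stood at 3.39, 3.63 and 3.26 FPKM in the control libraries and at 3.7, 3.15 and 3.7 FPKM in the EFV libraries. In FPKM the highest and the lowest value were both from EFV libraries, so the controls lay within the EFV range. EFV over control, it was 0.019 on the log2 scale (SE 0.096, 95% interval -0.20 to 0.24), and its sign turned without control library 3, EFV library 1 or EFV library 3.

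Pou4f3 (BRN3C), which in the retina is limited to a subset of ganglion cells and is best known from the hair cells of the inner ear, lies on chromosome 18 (42394597 to 42396093). It had 1.98, 1.76 and 1.66 FPKM in the control libraries and 1.95, 1.82 and 2.36 FPKM in the EFV libraries. EFV library 3 was the highest, and the other 5 libraries overlapped. These values rested on 44 to 62 counts, at which counting alone gives a coefficient of variation of 14.0%, about as large as the spread seen among the EFV libraries (13.8%). The log2 fold change of 0.16 (SE 0.20) had a 95% interval of -0.28 to 0.61, or 0.822 to 1.52 as a fold, so a change of that size was not detectable for Pou4f3 at this depth. Without EFV library 3 the log2 fold change was 0.052, and without control library 3 it was 0.11.

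Rbpms encodes an RNA-binding protein that within the neural retina is largely restricted to ganglion cells and is the usual marker for counting all of them; it lies on chromosome 8 (33782643 to 33929922). Its level was 17.27, 19.08 and 17.3 FPKM in the control libraries and 17.63, 16.78 and 18.09 FPKM in the EFV libraries. Control library 2 was highest and EFV library 2 lowest, with the other 4 libraries between 17.27 and 18.09 FPKM. The means were 17.88 ± 1.04 and 17.5 ± 0.665 FPKM (SD, n = 3 each), and the log2 fold change was -0.045 (SE 0.065, 95% interval -0.19 to 0.10). As a fold, the interval ran from 0.8757 to 1.073. The log2 value was 0.012 without control library 2 and -0.076 without control library 3.

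Sncg encodes gamma-synuclein, a small protein of ganglion cell bodies and axons, and lies on chromosome 14 (34370274 to 34374669). It was at 117.3, 117.45 and 102.6 FPKM in the control libraries and at 111.71, 106.03 and 133.09 FPKM in the EFV libraries. Control library 3 was the lowest and EFV library 3 the highest, and the remaining values lay between them in no order of treatment. After Pou4f3, Sncg varied most among the EFV libraries, with a coefficient of variation of 12.2%. On the log2 scale the difference was 0.037 (SE 0.085, 95% interval -0.15 to 0.23) and turned to -0.027 without control library 3 and to -0.061 without EFV library 3.

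Thy1 encodes a surface glycoprotein of neurons and is on chromosome 9 (44043384 to 44048579). It had the narrowest relative range of the 10 genes, with 139.54, 141.59 and 133.79 FPKM in the control libraries and 137.3, 137.79 and 143.61 FPKM in the EFV libraries. Its coefficient of variation was 2.92% in control and 2.52% in EFV libraries, and control library 3 was again the lowest. The means were 138.3 ± 4.04 and 139.6 ± 3.51 FPKM (SD, n = 3 each), and the log2 fold change was -0.0043 (SE 0.046, 95% interval -0.11 to 0.10). The FPKM means put EFV above control and the scaled counts put it below, a difference within the error of both; scaling by total counts gave 0.011, and leaving out control library 3 gave -0.029. Whether reads of the Thy1-driven transgenes enter the count of Thy1 was not tested.

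Slc17a6 encodes VGLUT2, the transporter that loads glutamate into the synaptic vesicles of ganglion cells, and is on chromosome 7 (51621830 to 51671126). Its level was 17.05, 16.98 and 15.24 FPKM in the control libraries and 15.34, 16.21 and 15.34 FPKM in the EFV libraries. In FPKM, control libraries 1 and 2 were above all EFV libraries, and control library 3 was below all of them. On the scaled counts control library 3 lay among the EFV libraries. As log2 deviations from the 6-library mean it was at -0.055, and EFV libraries 1, 2 and 3 were at -0.0895, 0.021 and -0.0821. The means were 16.42 ± 1.03 and 15.63 ± 0.502 FPKM (SD, n = 3 each). The log2 fold change was -0.10 (SE 0.058, 95% interval -0.23 to 0.029), with an unadjusted edgeR p of 0.113 and an adjusted p of 0.999. Without control library 3, the library with lens transcripts, it was -0.15 with an unadjusted edgeR p of 0.0251, and without control library 2 it was -0.064 with one of 0.338.

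The neurofilament genes encode the light (Nefl), medium (Nefm) and heavy (Nefh) chains of the intermediate filaments that set the calibre of large axons; horizontal cells use them too. The light chain forms the core of the filament, and the tails of the medium and heavy chains project from it. The tail of the heavy chain holds a repeat of lysine, serine and proline (KSP) whose serines are phosphorylated in axons. Part of this repeat is shown because it is the feature by which the heavy chain differs from the others: the GENCODE M21 coding sequence of Nefh holds 51 in-frame KSP triplets in 1090 codons (4.68 per 100 codons), that of Nefm holds 4 in 848 codons (0.472 per 100 codons) and that of Nefl 0 in 543 codons. The richest stretches of 150 coding bases have 8 triplets in Nefh (coding bases 1549 to 1698) and 2 in Nefm (coding bases 1372 to 1521), with the codons of each triplet in capitals.
Nefh: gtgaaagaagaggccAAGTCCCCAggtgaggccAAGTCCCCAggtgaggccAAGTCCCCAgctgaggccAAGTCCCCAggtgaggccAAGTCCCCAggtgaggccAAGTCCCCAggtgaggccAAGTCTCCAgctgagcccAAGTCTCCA
Nefm: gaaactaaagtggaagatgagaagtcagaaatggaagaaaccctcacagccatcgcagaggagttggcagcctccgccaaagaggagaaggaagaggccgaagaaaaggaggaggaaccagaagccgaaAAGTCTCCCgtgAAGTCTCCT
No window of 50 bases of the Nefh transcript occurred in a transcript of another gene. The expected counts of Nefh were nevertheless fractional in all 6 libraries, unlike those of the other 9 genes, which were whole numbers throughout; a fraction arises when reads are divided between places, and where the other reads went was not tested.

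Nefl is on chromosome 14 (68083863 to 68089095) and was the most abundant of the 10 genes. It was at 149.99, 150.2 and 136.18 FPKM in the control libraries and at 132.0, 148.91 and 143.6 FPKM in the EFV libraries. Control library 3 lay below EFV libraries 2 and 3, so the groups overlapped widely. The means were 145.5 ± 8.04 and 141.5 ± 8.65 FPKM (SD, n = 3 each), and the log2 fold change was -0.057 (SE 0.064, 95% interval -0.20 to 0.088). That value was -0.0071 without EFV library 1 and -0.10 without EFV library 2 or control library 3. In GENCODE M21 the first 1108 of the 3380 bases of the Nefl transcript overlap a long model of Nefm on the other strand. The Nefl model behind the counts is 2014 bases long, and its overlapping share was not worked out. The transcript counted for Nefm is not the long model. The strandedness of the libraries is not given in the sources used here.

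Nefm lies beside Nefl on chromosome 14 (68119545 to 68125004). It stood at 31.27, 32.17 and 29.92 FPKM in the control libraries and at 28.38, 32.37 and 31.81 FPKM in the EFV libraries. In FPKM, EFV library 1 was lowest and EFV library 2 highest, so all controls lay inside the EFV range. Its log2 fold change was -0.029 (SE 0.060, 95% interval -0.16 to 0.11), and it was 0.030 without EFV library 1, 0.0020 without control library 2 and -0.058 without control library 3.

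Nefh is on chromosome 11 (4938754 to 4948064). It had 24.0, 23.41 and 21.74 FPKM in the control libraries and 25.71, 23.79 and 25.7 FPKM in the EFV libraries. EFV libraries 1 and 3 were above all controls, and EFV library 2 was between control libraries 1 and 2. The means were 23.05 ± 1.17 and 25.07 ± 1.11 FPKM (SD, n = 3 each). The log2 fold change was 0.10 (SE 0.050, 95% interval -0.0083 to 0.22), with an unadjusted edgeR p of 0.0656, the smallest of the 10 genes, and an adjusted p of 0.999. It was 0.13 without EFV library 2, where the unadjusted edgeR p was 0.0416, and 0.062 without control library 3, where it was 0.238.

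Over the 10 genes, 4 had a log2 fold change above 0 (Pou4f2, Pou4f3, Sncg and Nefh) and 6 below 0, beside 50.5% of all genes tested above 0. At an adjusted p of 0.05, edgeR called 0 of the 10, as it called 0% of all genes. At an unadjusted p of 0.05 and a fold change of 7% it called 0 of the 10, against 3.01% of all genes tested (1.47% higher and 1.54% lower with EFV), and 0 of the 10 had an unadjusted p under 0.05. DESeq2 and limma on log2 FPKM also called 0 of the 10 by either rule. The control and EFV values did not overlap for 0 of the 10, against 8.14% of all genes (3.95% higher and 4.18% lower with EFV). A Poisson model, whose error covers counting but not the differences among pools, called 4 of the 10 at an adjusted p of 0.05, namely Nefh, and Nefl, Slc17a6 and Pou4f1 in the opposite direction; by that model 2043 of all genes passed. The median log2 fold change of the 10 was -0.017, beside 0.0012 over all genes tested, and the median size without regard to sign was 0.051, beside 0.057 over all genes. The count above 0 moved from 4 to 2 without control library 3 or without EFV library 3, and to 7 without control library 2.

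**Figure D2:**
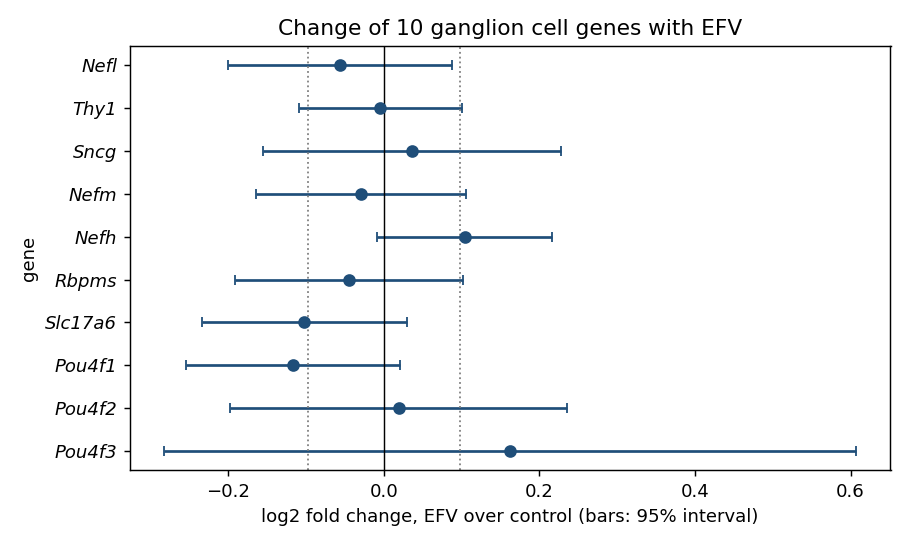
Log2 fold change of each ganglion cell gene, EFV over control, with its 95% interval from edgeR; dotted lines mark a fold change of 7% in either direction. Every interval includes 0, from -0.12 for Pou4f1 to 0.16 for Pou4f3, and Pou4f3 has the widest.

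Among libraries, the 10 genes did not all deviate together. On log2 CPM (counts relative to the TMM-scaled library total), control library 2 held the highest value for 7 of the 10 genes, EFV library 3 for 2 (Pou4f3 and Sncg) and EFV library 1 for Nefh. The lowest value was in control library 3 for 4 genes, in EFV library 1 for 4 and in EFV library 2 for 2. As deviations from the 6-library mean, averaged over the 10 genes, control libraries 1, 2 and 3 stood at 0.0233, 0.064 and -0.077, and EFV libraries 1, 2 and 3 at -0.0412, -0.0202 and 0.0512. The range within each group was larger than the difference between groups. Nefl and Nefm were lowest in EFV library 1 (-0.13 and -0.14), where Nefh was highest (0.086) and Pou4f1 was at -0.13. Summed FPKM of the 10 genes was 509.8, 514.3 and 469.3 in the control libraries and 480.6, 494.5 and 524.6 in the EFV libraries. The low sum of control library 3 came in the library with lens transcripts, and the part of lens RNA in it was not tested.

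**Figure D3:**
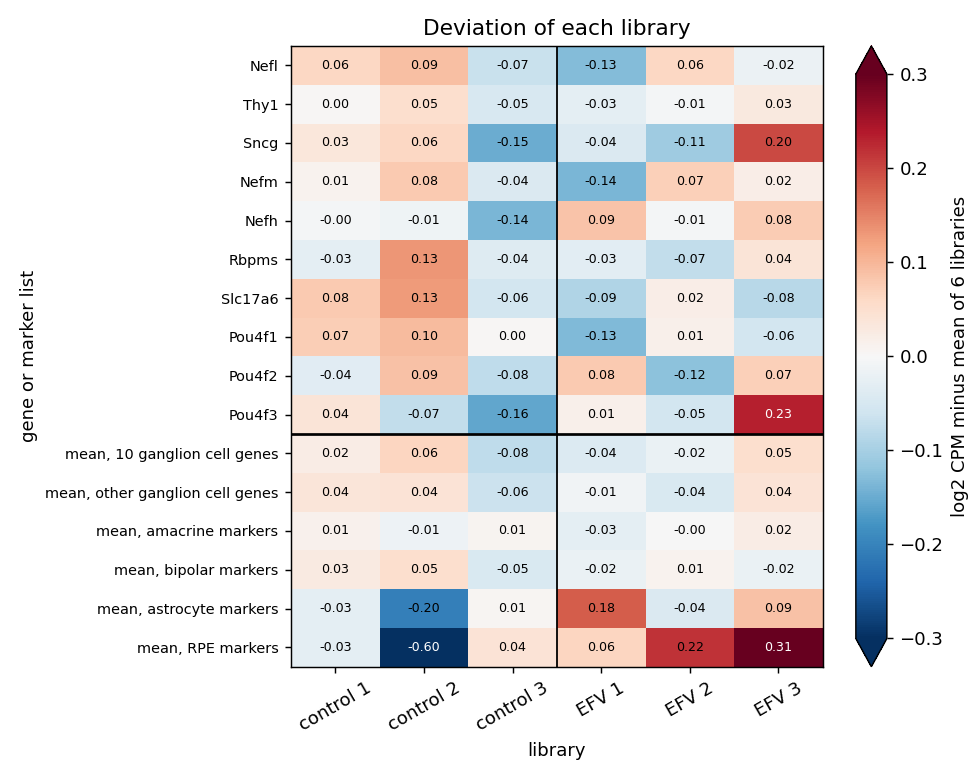
Deviation of each library from the 6-library mean (log2 CPM; colour scale from -0.3 to 0.3) for the 10 ganglion cell genes, and averaged over that list and 5 marker lists. Over the 10 genes control library 2 (0.064) and EFV library 3 (0.0512) are highest and control library 3 (-0.077) lowest, while RPE markers are at -0.60 in control library 2.

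Ratios between genes within a library do not depend on how the library was scaled. The ratio of Nefh to Nefl in FPKM was 0.160, 0.156 and 0.160 in the control libraries and 0.195, 0.160 and 0.179 in the EFV libraries. The controls had an SD of 0.0023, EFV library 2 was at their level, and the other EFV libraries were above it. The log2 difference was 0.16 (exact permutation test over libraries, two-sided p = 0.2, adjusted p = 0.5 over 6 ratios). The ratio of Nefm to Nefl was 0.214 ± 0.0056 in control and 0.218 ± 0.0033 in EFV libraries (SD, n = 3 each), with a log2 difference of 0.026 (0.045 without control library 3). Among the transcription factors, the ratio of Pou4f2 to Pou4f1 was 0.426, 0.453 and 0.427 in control and 0.538, 0.411 and 0.506 in EFV libraries, and that of Pou4f3 to Pou4f1 was 0.249, 0.220 and 0.218 against 0.283, 0.237 and 0.323. In both, EFV libraries 1 and 3 lay above the controls; EFV library 2 was below them in the first ratio and among them in the second. Their log2 differences were 0.15 and 0.29, with exact permutation p of 0.4 and 0.2 and an adjusted p of 0.5 for each. With 3 libraries against 3 such a test cannot go below 0.1, so these ratios could not have passed the threshold at any size.

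**Figure D4:**
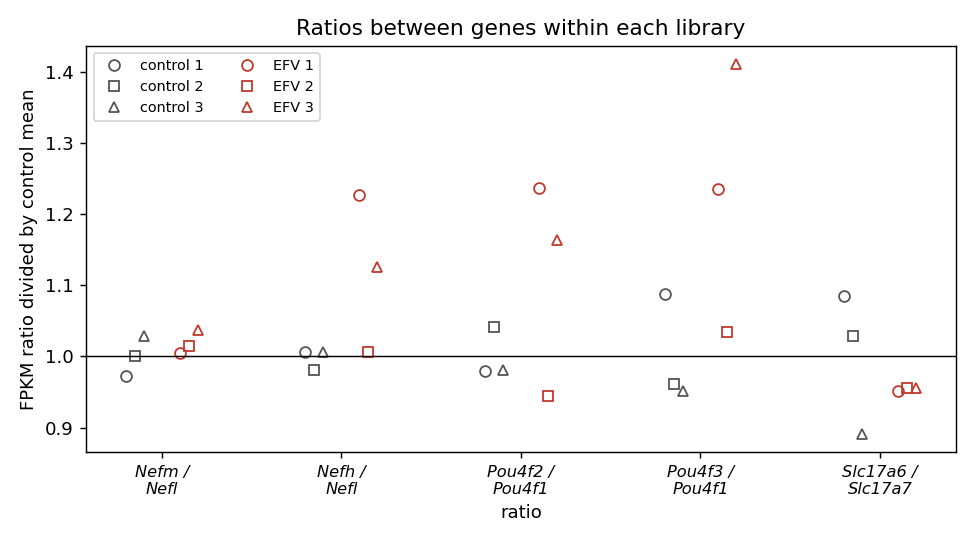
FPKM ratios between genes in each library, divided by the control mean of the ratio, for control (grey) and EFV (red) libraries. Nefh over Nefl in EFV libraries 1 and 3 and Pou4f3 over Pou4f1 in EFV libraries 1 and 3 lie above the controls, while EFV library 2 lies among them in both.

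The family relatives of these genes, which other retinal cells also use, were read in the same way. Slc17a7, which encodes VGLUT1, the transporter of photoreceptors and bipolar cells, was at 660.7 ± 27.0 FPKM in control and 656.9 ± 19.9 FPKM in EFV libraries (SD, n = 3 each). The level of Slc17a6 was far lower, with a ratio to Slc17a7 of 0.0249 ± 0.00244 in control and 0.0238 ± 9.15e-05 in EFV libraries. The control ratios, 0.0270, 0.0256 and 0.0222, enclosed the EFV ratios. Sncb, which encodes the beta-synuclein of presynaptic terminals, had 422.8 FPKM in control and 423.6 FPKM in EFV libraries. On the log2 scale the differences were -0.025 (SE 0.046) for Slc17a7 and -0.017 (SE 0.041) for Sncb. Slc17a8, for VGLUT3, was scarce at 2.717 and 2.443 FPKM, with a log2 fold change of -0.15 (SE 0.097).

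Among partners of the neurofilaments, Ina, which encodes alpha-internexin and co-assembles with the 3 chains, was at 41.31 ± 1.42 FPKM in control and 40.18 ± 1.34 FPKM in EFV libraries (SD, n = 3 each; log2 fold change -0.057, SE 0.047). Prph, for peripherin, an intermediate filament protein of neurons with long projections, was at 2.45, 2.58 and 1.91 FPKM in control and 1.76, 1.86 and 1.91 FPKM in EFV libraries. On the scaled counts the EFV values lay below the control values, while in FPKM control library 3 and EFV library 3 were equal. The log2 fold change of Prph was -0.35 (SE 0.17), with an unadjusted edgeR p of 0.0695 and an adjusted p of 0.999, and without control library 3 it was -0.46 with an unadjusted edgeR p of 0.0244; without control library 2 it was -0.26. The list of 16 neurofilament partners and axon cytoskeleton genes had 5 above 0 and 11 below, a median of -0.0060, and 0 called at an unadjusted p of 0.05 and a fold change of 7% (1 without control library 3 or EFV library 2). In 2 of the 16, Prph and Tubb2b, the scaled values of EFV libraries lay below those of the controls, where 8.14% of all genes did not overlap (4.18% lower with EFV). Its most abundant genes were Tubb2a (119.6 and 120.4 FPKM in control and EFV libraries), Stmn3 (113.3 and 112.1 FPKM) and Map2 (80.31 and 82.54 FPKM), for a tubulin, a microtubule-destabilising stathmin and a dendritic microtubule protein.

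A list of 18 further genes of ganglion cells was read beside the 10. Of these, which include transcription factors (Isl1, Ebf1), a receptor subunit (Chrna6) and a growth protein (Gap43), 17 were tested, and Atoh7, the factor that specifies the class in the embryo, was too low to test at 0.21 to 0.42 FPKM. In this list 9 were above 0 and 8 below, with a median log2 fold change of 0.0059, a range of -0.13 to 0.087 and 0 called at an unadjusted p of 0.05 and a fold change of 7%. Without control library 3, 2 were called, and without EFV library 3, 1 was. The most abundant were Tppp3 (59.5 and 57.84 FPKM in control and EFV libraries), Tubb3 (56.43 and 58.45 FPKM) and Stmn2 (37.77 and 38.77 FPKM), all of them proteins of microtubules. By library, this list deviated by 0.0374, 0.0419 and -0.0648 in the control libraries and by -0.0115, -0.045 and 0.0421 in the EFV libraries, with control library 3 lowest, as for the 10 genes.

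Genes that mark ganglion cell subtypes numbered 20, all tested. Of these 14 were above 0 and 6 below, with a median of 0.014, where 50.5% of all genes tested were above 0. At an unadjusted p of 0.05 and a fold change of 7%, 0 were called (1 without control library 2, control library 3 or EFV library 3). Cartpt, a peptide of direction-selective ganglion cells, led at 132.3 and 134.8 FPKM in control and EFV libraries. Jam2, a marker of the cells tuned to upward motion, was at 36.89 and 37.29 FPKM. Cartpt and Jam2 were above Rbpms, whose mean was 17.69 FPKM, and the RNA is of whole tissue. Which cells these transcripts came from was not tested. Penk, for the precursor of enkephalins, which amacrine cells also make, varied most, with 13.34, 13.09 and 28.96 FPKM in the control libraries and 10.78, 37.31 and 15.9 FPKM in the EFV libraries. Both groups thus held a library far above its others.

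Genes of the response to axon injury are switched on by ganglion cells after damage to the optic nerve. Of 14 such genes 13 were tested; Sprr1a, a classical injury gene, was too low, at 0 to 0.17 FPKM. In this list 3 were above 0 and 10 below, with a median of -0.084, where 50.5% of all genes tested were above 0. At an unadjusted p of 0.05 and a fold change of 7%, 0 were called (1 without control library 1 or EFV library 3). Ddit3, a factor of the stress response of the endoplasmic reticulum, was at 39.3 and 39.82 FPKM in control and EFV libraries, Gadd45a, of the response to DNA damage, at 24.16 and 23.09 FPKM, and Csrp1, a LIM protein, at 16.58 and 16.16 FPKM. The mean deviation of the list was 0.161 in control library 3 and between -0.064 and -0.0154 in the other 5, so the library with lens transcripts was the highest here. The part of lens RNA in it was not tested.

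Ganglion cells receive their input from amacrine and bipolar cells. The 12 amacrine markers had 6 above 0 and 6 below, a median of -0.0046 and 0 called at an unadjusted p of 0.05 and a fold change of 7% (1 without control library 2), and their sum was 576.0 to 609.1 FPKM in control and 568.2 to 607.2 FPKM in EFV libraries. Of the 9 bipolar markers 4 were above 0 and 5 below, with a median of -0.0019, and of the 4 horizontal cell markers 2 were above and 2 below, with a median of 0.026. In both lists 0 were called, while without control library 3 there were 2 calls among the bipolar markers, and without EFV library 3 there was 1. Over all genes, leaving out a library gave 389 to 576 calls by the same rule. Isl1 is both among the bipolar markers and in the list of 18 further ganglion cell genes, so these lists are not independent. Markers of the astrocytes, which accompany ganglion cell axons, had 5 of 6 above 0, where 50.5% of all genes tested were. Their median was 0.20, and 0 were called (2 without EFV library 2). Gfap, the intermediate filament of reactive glia, was at 4.15, 3.16 and 4.6 FPKM in the control libraries and 6.67, 3.65 and 5.58 FPKM in the EFV libraries, so that EFV libraries 1 and 3 were above all controls and EFV library 2 was among them. In Gfap, as in Nefh, EFV library 2 sat with the controls. Averaged over the astrocyte markers, EFV library 2 (-0.0423) also lay within the controls (-0.0304, -0.204 and 0.00662), with EFV libraries 1 and 3 at 0.182 and 0.088. Not every marker followed this: Aldh1l1 was highest in EFV library 2 (4.6 FPKM), and Aqp4 was the marker below 0 (log2 fold change -0.068). The part of glial RNA in the values of Nefh was not tested.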

How the data were processed

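Expected counts and FPKM per gene of 6 libraries were used. The authors filtered the reads, aligned them to the mouse genome (mm10) and estimated the deposited expected counts with RSEM 1.2.12 (the submitters' notes also name HISAT2 2.0.4 and Bowtie2 2.2.5); these are not normalized. The deposited FPKM values were made by the authors from the same counts by length and library total, rounded, with 0.01 the smallest listed; an absent gene was taken as 0. The filter settings, annotation release and strandedness are not given in the sources used here.

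Expected counts were rounded, and every gene that reached 10 counts in 3 or more libraries was tested with edgeR 4.0.16 (R 4.3.3; quasi-likelihood, TMM, group as the only term, two-sided, Benjamini-Hochberg adjustment over 15537 genes). There were 2 rules for a call: an adjusted p of 0.05, and the limits in the study's methods (unadjusted p of 0.05 with a fold change of 7%). The study's methods set those limits for a test based on the Poisson distribution, while edgeR was the main test here. Ratios of FPKM were compared with an exact permutation test over libraries. Positions are from RefSeq and sequences from GENCODE M21, both GRCm38; the 10 genes matched by Entrez identifier. The scripts were tested on simulated data.

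The 10 genes and all lists were chosen with earlier results of these data known. The text names the 10 genes, 5 family relatives (Sncb, Slc17a7, Slc17a8, Ina, Prph) and, by rule, some genes of each list. The rule took the 3 most abundant genes of a list and up to 3 at an unadjusted p of 0.05 or less. Atoh7, Isl1, Ebf1, Chrna6, Gap43, Sprr1a, Tubb2b, Aif1, Olig2 and Cd3g were named after the values were seen. Some genes that the rule covers, with 1 of the 6 ratios, are not reported here. Further lists covered rods, cones, Muller cells, smooth muscle, microglia and fibroblasts. Alternatives were other scalings, filters, DESeq2 1.42.0, limma 3.58.1 on log2 FPKM with pseudocounts of 0.1, 1 and 0.01, a Poisson model, a block for the replicate number, genes with an Entrez identifier, and leaving out each library.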

Additional observations from a re-analysis of the deposited data

How the results depend on the processing

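Of the 10 genes, the count at an adjusted p of 0.05 was 0 in every alternative except the Poisson model (4), and the count at an unadjusted p and fold was 0 except with total-count scaling (1, Nefh), the Poisson model (3, Nefh, Pou4f1 and Slc17a6) and leave-one-out (0 to 2). Over all genes, the adjusted count of 0 became 11 with DESeq2, 2043 with the Poisson model and 0 to 1 in leave-one-out; the unadjusted count of 467 became 269 with DESeq2, 2305 with the Poisson model and 389 to 576 in leave-one-out. The sign turned for Thy1 with total-count scaling (0.011) and with limma at the 3 pseudocounts (0.013 each), and for Sncb with limma (0.0028 each). In leave-one-out the log2 fold change ran from -0.029 to 0.019 for Thy1, -0.017 to 0.083 for Pou4f2, -0.076 to 0.012 for Rbpms, -0.061 to 0.096 for Sncg, -0.074 to 0.030 for Nefm and -0.061 to 0.00074 for Slc17a7. Pou4f1, Pou4f3, Nefl, Nefh and Slc17a6 kept their sign in all 18 alternatives, with leave-one-out ranges of -0.16 to -0.079, 0.052 to 0.23, -0.10 to -0.0071, 0.062 to 0.13 and -0.15 to -0.064. Same-numbered libraries correlated in their deviations at 0.125, 0.0832 and 0.0992, while differently numbered ones correlated at -0.101 to -0.0063. The main fit did not pair libraries by number, and whether same-numbered libraries share a source was not tested. With the replicate block 0 of the 10 genes were called and 514 of all genes passed the unadjusted limits. The cause of these shifts was not tested. Depth limits Pou4f3 most, with 44 to 62 counts. Leaving 2 libraries in a group assumes that they vary like the others.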

Other observations

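Markers of photoreceptors, glia and vessels were read by their counts and medians. Of 8 rod markers 4 had a log2 fold change above 0 and 4 below, with a median of -0.012, of 8 cone markers 3 and 5, with a median of -0.017, and of 8 Muller glia markers 2 and 6, with a median of -0.023; edgeR called 0 of each at an unadjusted p of 0.05 and a fold change of 7%, with 1 rod marker called without EFV library 2 and 1 cone marker without control library 1. Among the most abundant were genes for rod phototransduction proteins (Gnat1, Sag), cone phototransduction proteins (Pde6h, Opn1sw, Arr3) and glial enzymes or secreted proteins (Glul, Apoe, Dkk3). Of 6 tested microglia markers, led by C1qa, C1qb and Csf1r, 3 were above 0 and 3 below, with a median of 0.0096. Aif1, also on this list, was too low to test, with 5 to 14 counts. It was at 0.45, 0.73 and 0.4 FPKM in the control libraries and 0.35, 0.25 and 0.25 FPKM in the EFV libraries. Smooth muscle and pericyte markers, led by Rgs5, Pdgfrb and Acta2, had 3 above 0 and 4 below, with 0 called (2 without control library 1, and 1 without control library 2 or 3).

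At an unadjusted p of 0.05 and a fold change of 7%, edgeR called 3 of 10 RPE markers higher with EFV (Kcnj13, Lrat and Rpe65), all 7 tested lens markers lower (led by Crygs, Crybb3 and Mip), 1 of 4 oligodendrocyte markers higher (Mbp) and 1 of 5 fibroblast markers higher (Col1a2); 0 of them passed the adjustment. Of all genes tested, 3.01% were called by the same rule, 1.47% higher and 1.54% lower. Without control library 3, EFV library 1 or EFV library 2, 0 of the lens markers were called, and without EFV library 3, 2 were. The RPE count was 1 without EFV library 2 and 2 without control library 2 or EFV library 3. In the oligodendrocyte list 0 were called without control library 1, control library 3 or EFV library 3, and in the fibroblast list 0 were called without control library 1, control library 2, EFV library 1 or EFV library 2. Of the oligodendrocyte markers, Mbp was at 8.13, 8.58 and 7.98 FPKM in the control libraries and 10.9, 8.77 and 13.7 FPKM in the EFV libraries. In FPKM the groups did not overlap, but on the scaled counts they did (log2 fold change 0.20, SE 0.086). The length by which Mbp was divided ran from 3503.9 to 4439.24 bases between libraries. Of the 4 tested oligodendrocyte markers 2 were above 0 and 2 below (Cnp and Ugt8a). The part of RPE, lens, oligodendrocyte and fibroblast RNA in the values of the ganglion cell genes was not tested.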
